A study of Mus musculus with 20 samples.

Results

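The methionine cycle and the transsulfuration pathway were followed through the open chromatin at 9 enzyme genes, Mat2a, Mat2b, Ahcy, Ahcyl1, Ahcyl2, Mtr, Mtrr, Cbs and Cth. Every ATAC-seq peak within 10 kb of these genes was taken, and peaks of the 20 libraries that overlapped by 1 bp or more were joined. This gave 35 elements of 101352 merged regions, holding 321 of 787806 peaks. ATAC-seq inserts sequencing adapters into DNA that is not covered by nucleosomes, so a peak marks a stretch of accessible chromatin.

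The cells were C2C12, a mouse myoblast line that forms muscle cells in culture, either wild type (WT) or without Setd2 (KO), the gene of a methyltransferase for lysine 36 of histone H3. Cells of each genotype were taken at D0, with no medium named, and at D1 and D5 from control (CTL) or methionine-restricted (MR) culture, which gives 10 groups of 2 libraries. The WT libraries are replicates 1 and 2, and each KO group holds 1 library of KO line 1 and 1 of KO line 2, so the KO spread includes the difference between lines and the same 2 lines recur in every condition. The labels do not say that WT replicates came from separate cultures, so p-values measure the spread between these samples, which may be technical.

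Methionine is activated to S-adenosylmethionine (SAM), the methyl donor of most methyltransferases, histone methyltransferases included. Use of the methyl group leaves S-adenosylhomocysteine, which is split to homocysteine. Homocysteine is either methylated back to methionine with folate and vitamin B12, or enters transsulfuration, which makes cysteine.

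Peak lists give positions and no letters, so the DNA at the start sites is shown from RefSeq promoters (assembly GRCm38.p6), 250 bases before the start site. These 5 belong to the genes on which the results turn: Mat2a and Mat2b, whose start-site elements differed most in rank between genotypes, Ahcyl2 and Mtrr, whose elements were missing from some KO libraries, and Cbs, which had no start-site element. Capitals mark matches on either strand to 1 of the 9 motifs searched, and matches that overlap run together.
Mat2a (chr6:72439557-72439806, minus strand): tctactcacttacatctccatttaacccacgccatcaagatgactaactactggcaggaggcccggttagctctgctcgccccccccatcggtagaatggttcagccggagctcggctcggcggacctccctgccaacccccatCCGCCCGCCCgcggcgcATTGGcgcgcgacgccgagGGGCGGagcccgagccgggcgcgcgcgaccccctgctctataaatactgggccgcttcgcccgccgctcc
Mat2b (chr11:40692683-40692932, minus strand): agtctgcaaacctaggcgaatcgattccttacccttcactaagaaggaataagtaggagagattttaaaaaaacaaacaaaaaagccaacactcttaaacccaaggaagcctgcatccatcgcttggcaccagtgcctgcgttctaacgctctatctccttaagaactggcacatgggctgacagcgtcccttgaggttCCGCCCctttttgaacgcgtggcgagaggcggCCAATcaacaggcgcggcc
Ahcyl2 (chr6:29768193-29768442, plus strand): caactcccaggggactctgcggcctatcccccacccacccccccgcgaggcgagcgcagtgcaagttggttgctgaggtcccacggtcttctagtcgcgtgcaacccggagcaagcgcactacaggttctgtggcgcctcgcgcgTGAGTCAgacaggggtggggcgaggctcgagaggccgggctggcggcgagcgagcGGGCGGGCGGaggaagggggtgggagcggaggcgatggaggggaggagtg
Mtrr (chr13:68582170-68582419, minus strand): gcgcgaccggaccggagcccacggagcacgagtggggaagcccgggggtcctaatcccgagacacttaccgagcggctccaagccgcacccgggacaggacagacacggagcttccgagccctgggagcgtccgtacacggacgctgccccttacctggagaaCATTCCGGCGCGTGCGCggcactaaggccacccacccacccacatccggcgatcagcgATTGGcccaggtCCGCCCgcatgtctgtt
Cbs (chr17:31637206-31637455, minus strand): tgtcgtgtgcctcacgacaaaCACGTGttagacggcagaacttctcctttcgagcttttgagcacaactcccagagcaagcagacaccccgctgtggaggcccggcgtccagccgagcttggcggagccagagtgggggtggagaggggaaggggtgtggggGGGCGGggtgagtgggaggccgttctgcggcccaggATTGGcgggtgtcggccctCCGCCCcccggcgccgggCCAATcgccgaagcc

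The promoter table held 13 promoters for 8 of the 9 genes and none for Cth. The 2 Mtrr promoters overlap and share sites. GGGCGG, the GC box, was found in at least 1 promoter of all 8 genes. By promoter it was in 11 of 13, against 43.0% of 21044 promoters of protein-coding genes. CCAAT was found in Mat2a, Mat2b, Ahcy, Mtr, Mtrr and Cbs, in 7 of 13 promoters, against 35.6% of all promoters. CACGTG, the E-box bound by Myc and related factors, was found in Cbs alone, 1 of 13 promoters, against 6.70% of all. TGANTCA, the AP-1 site, was found in Ahcy and Ahcyl2 (2 of 13 promoters, 6.17% of all). The NRF1 motif, a GC-rich palindrome, was found in Ahcyl1 and Mtrr (3 of 13, 6.92% of all). CATTCC was found in Ahcyl2 and Mtrr (3 of 13, 11.6% of all) and CCGGAA in Mtrr (2 of 13, 15.1%). TGATGNAA, the site of Atf4 with a C/EBP partner, was found in none of the 13 promoters and in 3.02% of all. The muscle E-box CAGCTG was found in none of the 13 and in 12.2% of all. The median GC content was 67.6% over the 13 promoters and 55.6% over all promoters. The Mat2a, Mat2b and first Ahcyl2 promoters lay wholly inside an accessible element and 117 of the 250 Mtrr bases did, while no base of the Cbs promoter lay in a peak of any library.

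A start-site element is the merged region within 1 kb of a transcription start in the promoter table. Where a gene had several, the one with a peak in most libraries was taken. For Cth, which is not in that table, the element at a gene end is given in its place. Such an element was found for 8 of the 9 genes, all except Cbs. Of all protein-coding genes in the table, 57.4% had one. Of the 8 elements, 5 (Mat2a, Mat2b, Ahcy, Ahcyl1 and Mtr) had a peak in each of the 18 libraries that remained after the short lists of KO line 1 at D5 were set aside, and 46.4% of start-site elements of all protein-coding genes did. The 8 elements had a median length of 671.5 bp. The other 27 elements had a median length of 151 bp, 0 of them had a peak in all 18 libraries, and 6 were seen in 1 library only. The choice by number of libraries partly fixes this contrast in advance. Among the 27, those at 741 bp (Ahcyl2), 866 bp (Mat2b) and 963 bp (Mtr) from a start also lie within 1 kb of it. Per gene there were 11 elements at Ahcyl2, 5 each at Ahcyl1 and Mtr, 4 at Mat2a, 3 at Mat2b, 2 each at Ahcy, Mtrr and Cth, and 1 at Cbs. Of all merged regions, 11% had a peak in all 18 libraries, against 14.3% of the 35 elements.

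**Figure D1:**
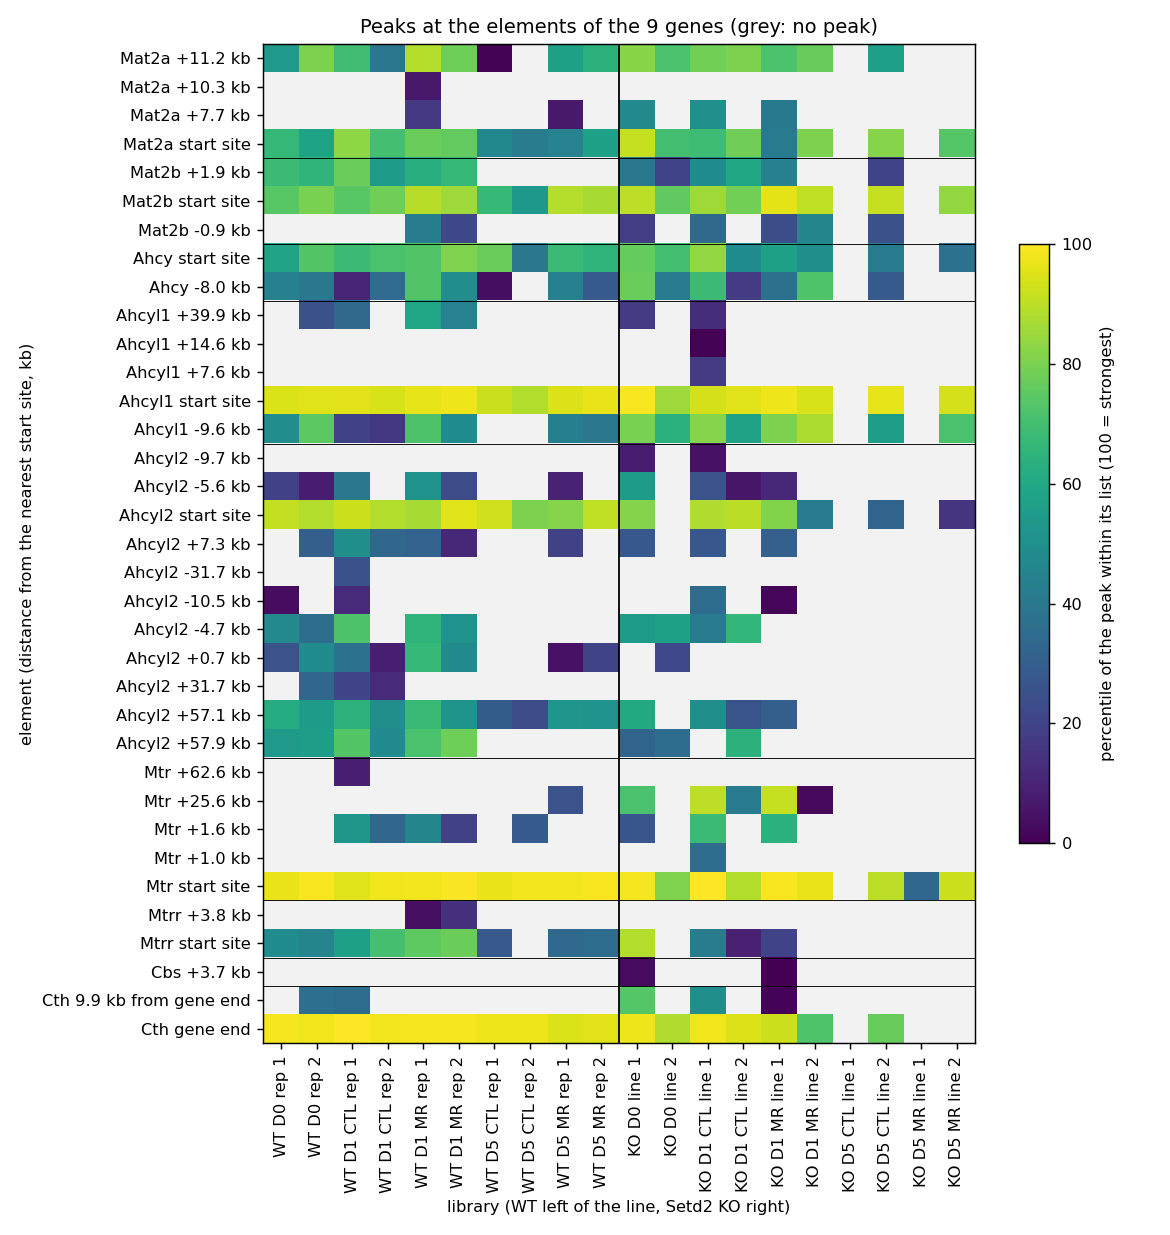
Each row is 1 of the 35 elements, named by its gene and its distance in kb from the nearest start site (negative values lie upstream), and each column is 1 of the 20 libraries. Colour gives the percentile of the element's strongest peak by −log10 q within its own list (100 is the strongest) and grey means no peak. The start-site rows of Mat2a, Mat2b, Ahcy, Ahcyl1 and Mtr are filled in 18 libraries, and the columns of KO line 1 at D5 are empty except for Mtr in MR.

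The lists held 20847 to 69881 peaks in 18 libraries, and 644 and 1881 peaks in KO line 1 at D5 in CTL and MR. The 18 libraries had a peak at 7 to 27 of the 35 elements, and the 2 short lists at 0 and 1. These 2 were therefore left out of the tests, and KO at D5 rests on line 2 alone. Setd2 had a start-site peak in 18 of 18 libraries, which does not check the knockout. Of the myoblast markers, Des, Cdh15 and Chrna1 had a start-site peak in 18 of 18 libraries, Myf5 in 9 and Pax7 in 0. The muscle gene Myog was called in 8 WT and 0 KO libraries, Acta1 in 8 and 1, and Ckm in 4 and 0. No start-site peak was found at the listed fibroblast (2 genes), adipocyte (3) or endothelial (1) markers. Bglap, an osteoblast gene, had 1 call, and the leukocyte genes Cd68 and Ptprc had 6 and 0. The part of these markers in the results was not tested.

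**Figure D2:**
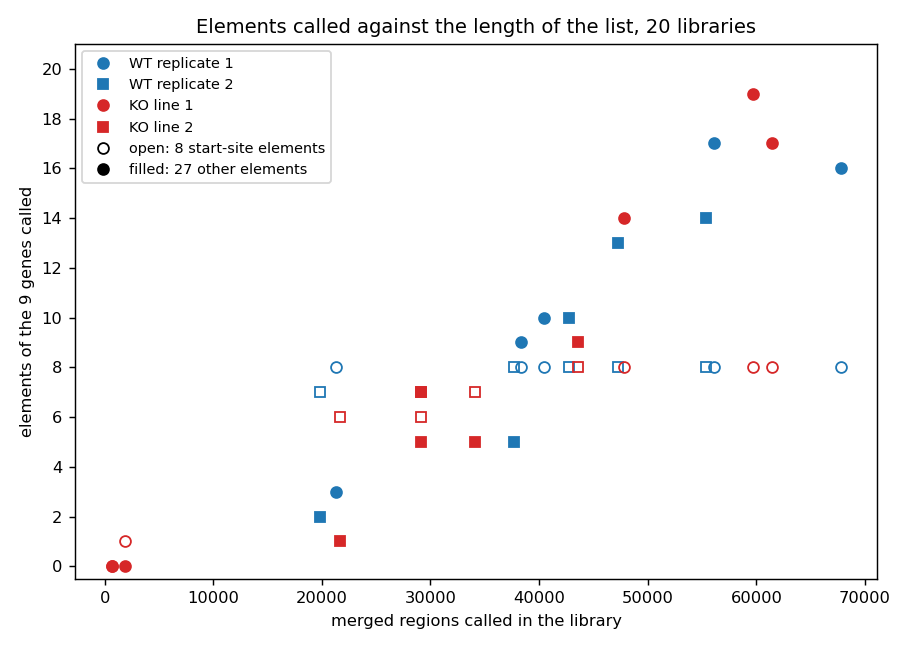
The x axis is the number of merged regions with a peak in a library, and the y axis the number of elements of the 9 genes with a peak. Open symbols are the 8 start-site elements (6 to 8 called in 18 libraries) and filled symbols the other 27, which go from 1 to 19 with the length of the list.

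Mat2a codes for the catalytic subunit of the SAM synthetase of most tissues outside the liver. Its gene lies on chromosome 6 from 72432796 to 72439556. Its start-site element (72438820 to 72440185, 1366 bp, the longest of the 35) also covers the start of Particl, a gene on the other side. Strength is given below as a percentile by −log10 q of the authors' peaks among the 11144 regions that had a peak in all 18 libraries, where 100 is the strongest, so that each list is ranked over the same regions. For Mat2a this percentile was 23.2 and 7.70 in WT D0 (replicates 1 and 2), 43.6 and 28.2 in WT D1 CTL, and 20.5 and 23.9 in WT D1 MR. In WT at D5 it was 26.4 and 24.9 in CTL and 5.92 and 12.7 in MR. The WT values in MR thus lay below those in CTL at both days, without overlap, as did 28.9% (D1) and 32.3% (D5) of the 11144 regions. Over both genotypes the means were 28.4 in MR and 35.9 in CTL, which did not pass (exact permutation p = 0.241, adjusted 0.524).

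In KO the Mat2a element had percentiles of 59.1 (line 1) and 41.8 (line 2) at D0, 10.9 and 38.3 in D1 CTL, and 3.75 and 48.9 in D1 MR. Line 2 at D5 gave 57.6 in CTL and 55.7 in MR. Line 2 exceeded both WT replicates in D0, D1 MR and both D5 media, while line 1 was above WT at D0 and below WT at D1 in both media. Averaged over conditions the percentile was 42.9 in KO and 21.7 in WT, a difference of 21.2 that missed the threshold (exact permutation p = 0.0334, adjusted 0.104) and was higher in 4 of 5 conditions. The difference rested on line 2: it was 26.8 without line 1 (adjusted exact permutation p = 0.0327, where 29% of the common regions passed) and 0.0568 without line 2. It was 9.29 without the D5 libraries. Against D0, D1 CTL was higher by 20.4 percentile points in WT and lower by 25.9 in KO, without overlap in both, as were 23.7% and 14.2% of the common regions. In KO line 1 it fell by 48.2 points and in line 2 by 3.50.

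**Figure D3:**
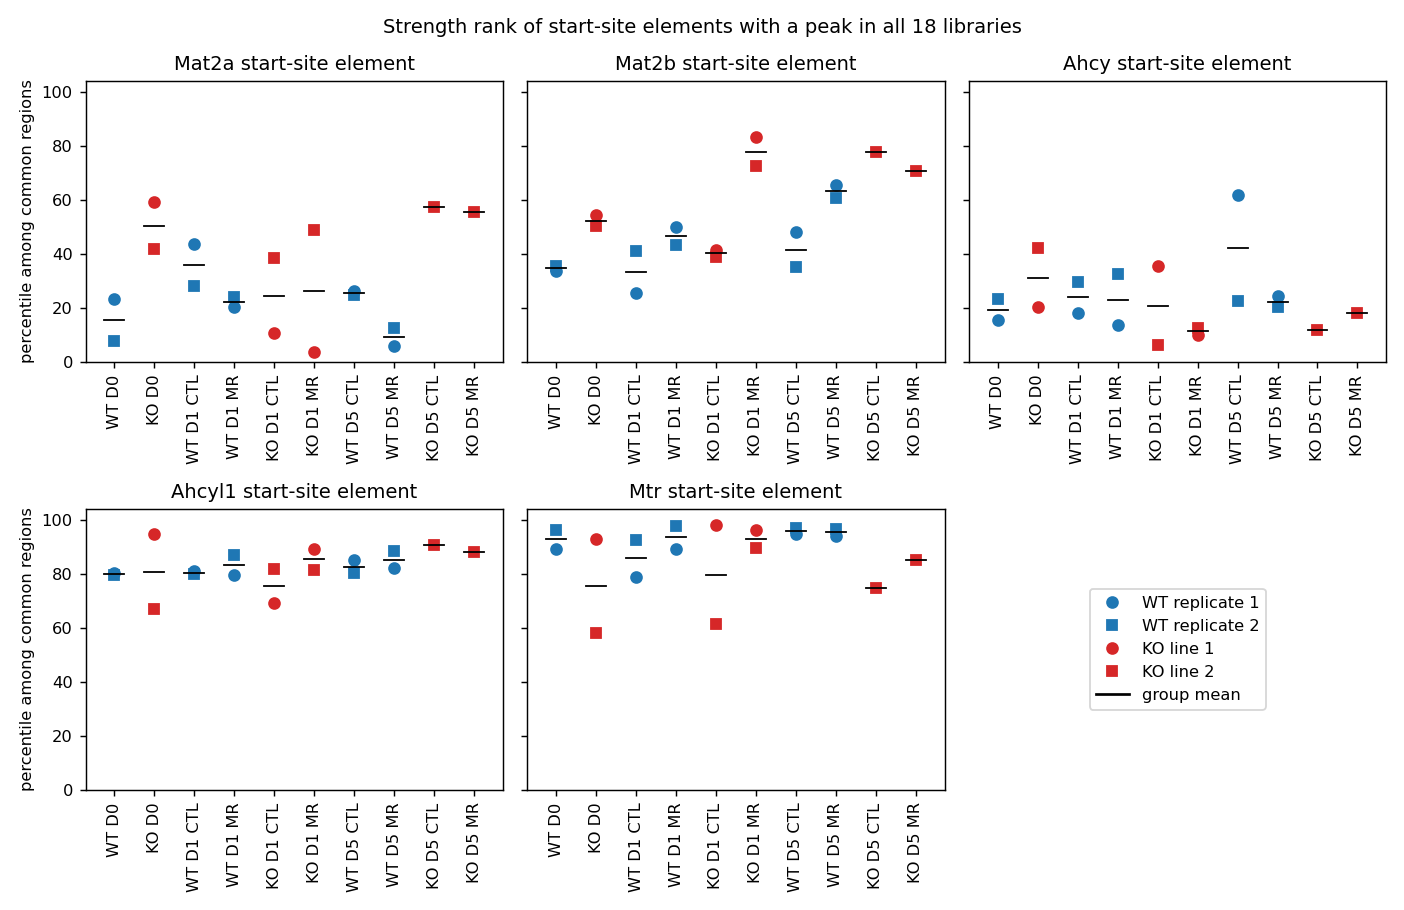
Percentile by −log10 q among the 11144 regions with a peak in all 18 libraries (y axis, 100 is the strongest) for the start-site elements of Mat2a, Mat2b, Ahcy, Ahcyl1 and Mtr in the 10 groups (x axis). Circles are WT replicate 1 or KO line 1, squares WT replicate 2 or KO line 2, blue WT and red KO, and bars are group means, with 1 KO library per medium at D5. Mat2b lies above WT in KO in the means of all 5 conditions, and the KO lines differ most at Mat2a and Mtr.

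The length under peaks within the Mat2a element also varied. It was 492 and 719 bp in WT D0, 550 and 708 bp in WT D1 CTL, and 1087 and 972 bp in WT D1 MR. At D5 it was 170 and 133 bp in WT CTL and 693 and 729 bp in WT MR, and 1121 and 843 bp in KO line 2 in CTL and MR. The 2 lowest values of the 18 were those of WT D5 CTL, whose lists held 22465 and 20847 peaks, against 39538 and 39263 in WT D5 MR. The list of KO D5 MR line 2 was about as short, with 22062 peaks, and had 843 bp. The part of list length in this difference was not tested. The 3 other elements near Mat2a lay inside Ggcx, the neighbouring gene of gamma-glutamyl carboxylase. The first of them (72428147 to 72428320) had a peak in 16 of 18 libraries and the other 2 in 1 and 5. Within the lists that held it, the first had a median percentile of 71.6, against 69.9 for the start-site element.

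**Figure D4:**
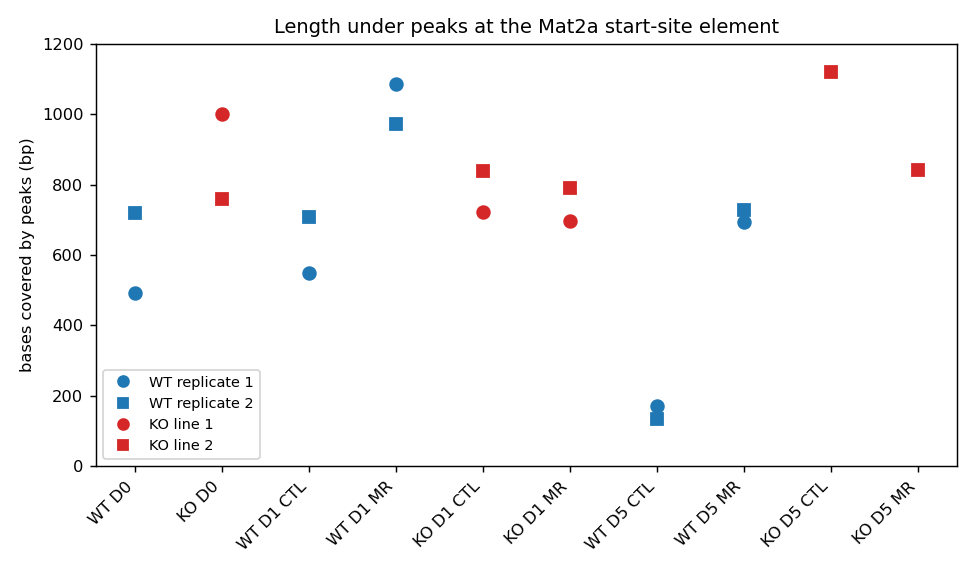
The y axis is the number of bases of the Mat2a start-site element covered by peaks (bp), and the x axis gives the 10 groups. Each point is 1 of 18 libraries (circles replicate or line 1, squares replicate or line 2, blue WT, red KO). WT D5 CTL lies at 170 and 133 bp, below the 492 to 1121 bp of the other 16 libraries.

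Mat2b codes for the regulatory subunit that binds MAT2A. The gene lies on chromosome 11 from 40679314 to 40695203, and its start-site element from 40692169 to 40693047. The percentile was 33.7 and 35.7 in WT D0, 25.6 and 41.0 in WT D1 CTL and 50.2 and 43.4 in WT D1 MR. At D5 the WT values were 48.0 and 35.1 in CTL and 65.6 and 60.9 in MR. In KO it was 54.3 and 50.3 (lines 1 and 2) at D0, 41.6 and 39.0 in D1 CTL and 83.2 and 72.6 in D1 MR, and line 2 had 77.6 and 70.8 at D5 in CTL and MR. The KO libraries lay above those of WT without overlap at D0 and in D1 MR, as 21.1% and 26.1% of the common regions did, and the 2 genotypes overlapped in D1 CTL.

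The Mat2b start-site element had the higher mean rank in KO in each of the 5 conditions, with means of 63.8 and 43.9, a difference of 19.9 percentile points (exact permutation p = 0.00103, adjusted 0.0115). It was the only 1 of the 5 rank-tested elements to pass for genotype. Of all 11144 regions 22.2% passed, 11.2% in this direction, so 1 of 5 is close to the background. The call was lost without the D5 libraries (difference 18.6, adjusted p = 0.119), and without WT replicate 1 (20.5, adjusted p = 0.188), WT replicate 2 (19.2, adjusted p = 0.154) or KO line 2 (21.4, adjusted p = 0.132), and with the replicate numbers as a block (20.5, adjusted p = 0.0980), all by the exact permutation test. In each of these 5 settings 0 of the 11144 regions passed. The block matches KO lines to WT replicate numbers, which pair nothing, and leaves 256 arrangements in place of 1944. The loss in the block therefore decides nothing about the call. The permutation treats KO libraries as independent, although those of 1 line deviated together. On chromosome 11 the median region ranked 2.81 points above WT in line 2 and 0.162 in line 1. The chromosome's median was then subtracted in each library, a setting chosen after the data were seen. The Mat2b difference was 16.7 (adjusted exact permutation p = 0.0176), in a setting where 21.9% of the 11144 regions passed.

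MR went with a higher rank of the Mat2b element without overlap in WT D1, WT D5 and KO D1 (31.8%, 31.5% and 16.1% of the common regions did), and with a lower rank in line 2 at D5. The means were 64.7 in MR and 48.2 in CTL, a difference of 16.5 (exact permutation p = 0.0231) that did not pass after adjustment (0.176). The other 2 elements of Mat2b were weak. The 1 located 1944 bp downstream of the start (40690530 to 40690738) had a peak in 11 of 12 libraries of D0 and D1 and in 1 of 6 at D5, that of KO line 2 in CTL. The 1 located 866 bp upstream (40693548 to 40693698) had a peak in 2 of 10 WT libraries, both of D1 MR, and in 5 of 8 KO libraries.

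Ahcy codes for the hydrolase that splits S-adenosylhomocysteine, the product that inhibits methyltransferases. The gene lies on chromosome 2 from 155059310 to 155074497, and its start-site element (155074038 to 155074576) is shared with the predicted genes Gm39966 and Gm45609. Its percentile ran from 6.35 to 61.7 with a median of 20.3, and the highest value was that of WT D5 CTL replicate 1, where replicate 2 had 22.7. The element thus sat among the weaker of the regions found everywhere. KO and WT means were 18.7 and 26.2, a difference of −7.47 (exact permutation p = 0.382), and MR and CTL means were 18.8 and 24.7 (exact permutation p = 0.426). Another element 8032 bp upstream (155082529 to 155082646) had a peak in 16 of 18 libraries, all but WT D5 CTL replicate 2 and KO D5 MR line 2.

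Ahcyl1 and Ahcyl2 code for proteins that resemble AHCY and are known as regulators of the IP3 receptor and of ion transport, and are not the main hydrolase. The Ahcyl1 gene lies on chromosome 3 from 107663120 to 107696560. Its start-site element (107696028 to 107696859) was strong in every library, with percentiles of 66.8 to 94.7 and a median of 81.6, lowest in KO D0 line 2 and highest in KO D0 line 1. The genotype difference was 1.81 (84.0 in KO and 82.2 in WT, exact permutation p = 0.595) and that of MR was 3.15 (85.4 and 82.2, exact permutation p = 0.245). The element 9571 bp upstream (107706131 to 107706450) had a peak in 16 of 18 libraries, and the 2 without were those of WT D5 CTL. It was present in both WT D5 MR libraries.

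Ahcyl2 lies on chromosome 6 from 29768379 to 29912310, with 3 start sites in the table, at 29768443, 29853741 and 29859596. The element at the first (29767907 to 29768585) had a peak in 17 of 18 libraries, all except KO D0 line 2. Within its own list, it stood at percentiles of 80.4 to 95.3 in the 10 WT libraries. Line 1 gave 81.5 at D0, 88.1 in D1 CTL and 81.1 in D1 MR. Line 2 gave 89.7 in D1 CTL, 41.7 in D1 MR, and 32.1 and 14.9 at D5 in CTL and MR. Line 2 in D1 MR and at D5 was thus far below WT. In D1 MR line 2 was also far below line 1, which had only the short lists at D5. These percentiles are within lists of unequal length and were not tested, and calls at this element allowed no test.

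Among all elements of the 9 genes, 1 passed the test of calls for genotype. It lies in Ahcyl2, 741 bp downstream of the third start site (29860337 to 29860517). It had a peak in 8 of 10 WT libraries, all but the 2 of D5 CTL, and in 1 of 8 KO libraries, line 2 at D0. The difference in the share of libraries was −0.7, lower in KO in 4 of 5 conditions (exact permutation p = 0.00463, adjusted 0.0403). Calls at 9 elements allowed a test, and of all 19646 regions that did, 11.5% passed, 6.86% in this direction, so 1 of 9 is close to the background. The peaks were weak, with percentiles of 4.87 to 66.9 within their lists, and none was among the 20000 strongest of its list. The call was lost without the D5 libraries (difference −0.833, adjusted p = 0.0537), without WT replicate 1 (−0.7, 0.165), WT replicate 2 (−0.7, 0.157) or KO line 1 (−0.6, 0.0552), and when a call had to cover at least 50% of the region (−0.6, 0.0768), all by the exact permutation test. In these 5 settings the difference lay between −0.6 and −0.833, and without either WT replicate or with 50% coverage 0 of all regions tested passed. Without the D5 libraries 18.8% of 7182 regions tested passed, and without KO line 1 24.7% of 13261 did.

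The 2 elements at the far end of Ahcyl2 lie at the start of Strip2, the next gene. The first (29916682 to 29917224) had a peak in 10 of 10 WT and 4 of 8 KO libraries, all 3 of line 1 and 1 of 5 of line 2 (exact permutation p = 0.0278, adjusted 0.0681). The second (29917464 to 29917675) had a peak in all 4 libraries of D0, in 5 of 8 at D1 and in 0 of 6 at D5. The element 4710 bp upstream of the second start site (29848919 to 29849031) gave the same counts by day, 4 of 4, 5 of 8 and 0 of 6. The remaining 6 elements of Ahcyl2 had a peak in 1 to 10 of 18 libraries.

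Methionine synthase, the product of Mtr, methylates homocysteine back to methionine with vitamin B12 as cofactor. The gene lies on chromosome 13 from 12181331 to 12258199, and its start-site element (12257688 to 12258351) was the strongest of the 5 by its median percentile, 92.7. In WT the percentile ran from 78.8 to 97.5, with group means of 92.7 ± 4.94 at D0, 85.6 ± 9.56 in D1 CTL, 93.4 ± 5.81 in D1 MR, 95.7 ± 1.41 in D5 CTL and 95.3 ± 1.76 in D5 MR (SD, n = 2 each). KO line 1 gave 93.0 at D0, 97.9 in D1 CTL and 96.1 in D1 MR. Line 2 gave 58.0, 61.3 and 89.3 in the same order, and 74.7 and 85.2 at D5 in CTL and MR. Line 2 was below both WT replicates in D0, D1 CTL and both D5 media, and line 1, which was ranked at D0 and D1 only, was not.

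The Mtr means were 81.5 in KO and 92.5 in WT, a difference of −11.01, with a lower KO mean in each of the 5 conditions, which did not pass (exact permutation p = 0.0643, adjusted 0.162). Without line 1 it was among the 3 of 5 elements, with Mat2a and Mat2b, that passed, where 29% of the 11144 regions did. The median region of chromosome 13 stood at −4.74 points from WT in line 2 and at 1.56 in line 1. The part of this shift in the Mtr value was not tested. An element inside Mtr, 25619 bp downstream of the start (12232166 to 12232494), had a peak in 1 of 10 WT libraries (D5 MR replicate 1) and in 5 of 8 KO libraries, all 3 of line 1 and line 2 at D1 in both media (exact permutation p = 0.148, adjusted 0.252). In line 1 it stood at percentiles of 71.3, 89.9 and 91.2 of its list at D0, D1 CTL and D1 MR, and in line 2 at 41.3 and 2.69 at D1 in CTL and MR.

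Mtrr codes for the reductase that reactivates methionine synthase. The gene lies on chromosome 13 from 68560780 to 68582169, and its start-site element (68581830 to 68582286) is shared with Fastkd3. It had a peak in 13 of 18 libraries, 9 of 10 in WT (not D5 CTL replicate 2) and 4 of 8 in KO. Of the KO libraries, all 3 of line 1 had it, and of the 5 of line 2 only that of D1 CTL did. Its percentile within the list was 48.7 and 45.4 in WT D0, 56.7 and 70.4 in WT D1 CTL, 75.3 and 77.4 in WT D1 MR, 28.0 in WT D5 CTL replicate 1, and 34.3 and 35.3 in WT D5 MR. In line 1 it was 88.5, 42.2 and 20.1 at D0, D1 CTL and D1 MR, and in line 2 it was 9.05 in D1 CTL. These percentiles are within lists of unequal length and were not tested, and the calls could not reach a p of 0.05 (exact permutation p = 0.111, the smallest possible). Another element 3828 bp downstream of the start (68578086 to 68578276) had a peak in both WT D1 MR libraries, at percentiles of 4.07 and 14.2, and in none of the other 18.

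**Figure D5:**
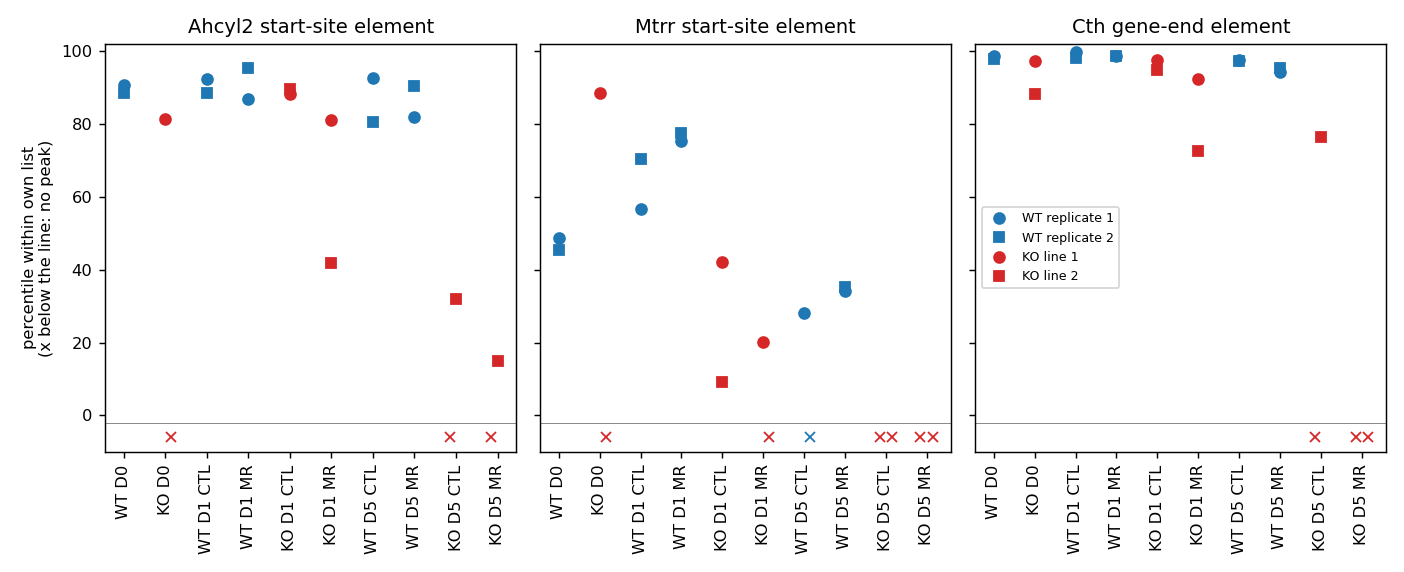
Percentile by −log10 q within each library's own list (y axis) for the start-site elements of Ahcyl2 and Mtrr and the gene-end element of Cth, in the 10 groups (x axis); crosses below the line are libraries with no peak. Circles are WT replicate 1 or KO line 1, squares WT replicate 2 or KO line 2, blue WT and red KO. The Ahcyl2 values of line 2 in D1 MR and at D5 (41.7, 32.1 and 14.9) lie below the 80.4 to 95.3 of WT.

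Cbs and Cth code for cystathionine beta-synthase and gamma-lyase, the enzymes of transsulfuration. They differed in accessibility. The Cbs gene (chromosome 17, 31612623 to 31637233) had no peak within 1 kb of its start in any library. Its 1 element (31633274 to 31633460) lies 3745 bp downstream of the start and had a peak in KO line 1 at D0 and in D1 MR, at percentiles of 2.99 and 0.390, among the weakest peaks of those lists. Accessibility at the Cbs start was therefore not detectable in these lists, which hold only peaks with a −log10 q of about 1 or more.

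The Cth gene (chromosome 3, 157894248 to 157925081) had an element at 1 of its ends (157924837 to 157925404), shared with the start of 1810013D15Rik. It had a peak in 17 of 18 libraries, all except KO D5 MR line 2. It stood at percentiles of 94.4 to 99.7 within the lists of the 10 WT libraries. Line 1 gave 97.4 at D0, 97.7 in D1 CTL and 92.3 in D1 MR, and line 2 gave 88.3, 94.7 and 72.6 in the same order and 76.6 in D5 CTL. These percentiles, too, come from lists of unequal length and were not tested. The other element, 9945 bp from the gene, had a peak in 2 WT and 3 KO libraries.

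The design asks what methionine restriction changes, with and without Setd2. No element of the 9 genes passed the test of MR against CTL: 0 of the 35 had calls that could reach p = 0.05, and 0 of 5 passed on ranks, with 1, Mat2b, at an unadjusted exact permutation p under 0.05. The background was the same, 0% of 2611 regions by calls and 0% of 11144 by ranks. In single conditions, which 2 libraries against 2 cannot test (the smallest exact p is 0.333), elements with a peak in both libraries of one medium and neither of the other were counted. In WT at D1, MR gained 2 of the 29 elements present (Mat2b 866 bp upstream, and Mtrr 3828 bp downstream of the start) where 10.2% of all regions were gained, and lost 1 (Ahcyl2, 31673 bp downstream of the third start), where 1.75% were lost. The 2 gains became 7 with 50% coverage (16.9% of all regions), 1 with a −log10 q of at least 2 (10.3%) and 0 among the 20000 strongest peaks (7.77%). In WT at D5, MR gained 2 of 18 (Ahcyl1 9571 bp upstream and Ahcyl2 741 bp downstream), against 27.9% of all regions, and lost 0, against 0.494%. In KO at D1, MR gained 0 of 29, against 0.369%, and lost 1 (Ahcyl2 4710 bp upstream of the second start), against 4% of all regions.

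The elements of the 9 genes seen per library went with the length of the list. WT D5 MR had 17 and 13 of 35 elements and WT D5 CTL 11 and 9, while of all regions 37.8% and 37.2% were called in MR and 21% and 19.6% in CTL. The part of list length in the MR difference was not tested. The ranks, taken over the same regions in every list, had the Mat2b element higher and the Mat2a element lower in MR in WT at both days without overlap. In WT at D1, 31.8% of the 11144 regions were higher and 28.9% lower without overlap, and in WT at D5 31.5% and 32.3%, so such a separation is common.

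For KO against WT in single conditions, 0 elements were gained or lost at D0, where 2.51% and 5.36% of all regions were. At D1 in CTL KO gained the Mtr element 25619 bp downstream of the start and lost the Ahcyl2 elements 741 and 31673 bp downstream of the third start, 1 and 2 of 32, against 5.41% and 6.45%. At D1 in MR KO gained the same Mtr element and lost 5 of 28, against 1.61% and 17.7%. The 5 were the distal element of Ahcyl1 at 107656041 to 107656185, 3 at Ahcyl2 (741 bp downstream of the third start, 4710 bp upstream of the second start, and the second at Strip2) and the Mtrr element 3828 bp downstream of the start. The test of whether MR acted differently in the 2 genotypes passed for 0 of 3 elements by calls and 0 of 5 by ranks, with a background of 0% of 9207 and 0% of 11144 regions and no element at an unadjusted exact permutation p under 0.05.

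The D5 lists were shorter than those of D1, with 20847 to 39538 peaks against 35201 to 69881, and the part of list length in the calls was not tested. All 8 elements whose calls could be tested were called less often at D5, by a median of −0.625 in the share of libraries, the same as the median of −0.625 over all 14311 regions tested. After adjustment 0 of 8 passed, with a background of 0%, and 3 had an unadjusted exact permutation p under 0.05 (each p = 0.0278, adjusted 0.0724): Mat2b 1944 bp downstream of the start, Ahcyl2 4710 bp upstream of the second start, and Ahcyl2 at Strip2. With the KO libraries paired by line, a setting added after the data were seen, the last of these passed and it was the 1 element that could be tested, where 90.1% of the 3898 testable regions passed. With all 20 lists the 3 elements passed, where 66.2% of all regions did. In WT, 6 of 25 elements present were lost in D5 CTL and 7 of 25 in MR, against 32.9% and 21.9% of all regions. By ranks 0 of 5 start-site elements passed, against 6.37% of 11144 regions. WT D1 CTL against D0 gained 1 of 25, the Mtr element 1588 bp downstream of the start, against 7.44%, and lost 0, against 2.63%. KO gained and lost 0 of 30, against 1.91% and 0.353%.

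A list of 44 other genes of methionine, polyamine, folate, vitamin B12 and sulfur metabolism was looked up at start-site elements. The promoter table held 32 of them, 27 had a start-site element and 19 had it in all 18 libraries. In the rank test for genotype 3 of 19 passed, all higher in KO, and 0 lower, with a median difference of 0.684 over the 19 and 0.533 over all 11144 regions. The background for start-site elements was 16.5% in either direction and 8.63% higher in KO. Mthfd1, an enzyme of folate interconversion, had means of 93.9 in KO and 86.9 in WT (exact permutation p = 0.00617, adjusted 0.0338). Apip, an enzyme of methionine salvage, had 43.8 and 25.7 (exact permutation p = 0.00977, adjusted 0.0453), and Mpst, a sulfurtransferase, 51.8 and 24.1 (exact permutation p = 0.0103, adjusted 0.0470). By ranks 0 of the 11144 regions passed for genotype without the D5 libraries or with the replicate numbers as a block. The same held without either WT replicate or without KO line 2, so these 3 calls were lost in each of these settings. For MR 0 of 19 passed, and for D5 against D1 1 of 19 did, Mthfd1, with means of 95.9 at D5 and 86.2 at D1 (exact permutation p = 0.00309, adjusted 0.0484). The background for D5 was 5.87% of start-site elements, so 1 of 19 is close to it. In WT alone, with the replicate numbers as a block or with a replicate left out, 0 of the 11144 regions passed for day. The Mthfd1 call was thus lost in each of these settings. In WT alone and without KO line 2 the smallest exact permutation p is 0.0556. No region could pass there, so the loss in these settings decides nothing. The calls allowed 2 further elements to be tested for day, and 0 passed.

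The start-site elements most like that of Mat2a in their percentiles over the 18 libraries, among 4733 other protein-coding genes, were B4galt5 (Spearman's rho 0.915), Ewsr1 (0.907) and Rhbdd3 (0.907). Of the 4733 genes, 0.401% had a rho of at least 0.8, and the median was 0.0361. The 18 points share their libraries and lines, so these values are a description.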

How the data were processed

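Each of the 20 libraries has its own deposited broadPeak list, with no pooling of replicates. Per the labels' protocols, a commercial tagmentation kit was used, with 10 cycles of PCR and paired-end sequencing. The build is GRCm38 per the submitters' processing notes. The aligner, duplicate filter, transposase shift and peak caller are not given in the sources used here, and their effect was not tested. For every peak the authors deposited a score, a fold enrichment (a ratio over background), a −log10 p and a −log10 q. The −log10 q or the fold served to rank peaks inside their own list. Sequencing depth is unknown here, and list length is given in its place. No 2 lists were identical.

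Peaks that overlapped by 1 bp or more were joined into regions, and a region was called in a library with a peak there. Gene spans and promoters came from RefSeq tables of assembly GRCm38.p6. On the peak coordinates 23.9% of gene ends had a peak midpoint near them, against 3.38% to 4.33% after shifts of the gene ends. The gene table gives no exons, so elements are placed as within the gene span or flanking it. Cth has no start site in the promoter table, so its gene end was used, a deviation from the planned rule.

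Labels were permuted within strata (condition, or genotype and day or medium) in every way: 1944 arrangements for genotype, 432 for MR, 324 for D5 against D1 and 324 for genotype by restriction. Tests were exact, two-sided permutation tests over 18 libraries with Benjamini-Hochberg adjustment over all testable regions at 0.05, for calls and for percentiles among 11144 common regions. The scripts were tested on simulated data. Exact p-values are coarse, so a small set of changed regions can miss the adjusted threshold. KO libraries of the same line deviated together (r of 0.357 to 0.542 over 3 pairs), so the line pairs them, and WT libraries of the same number did not throughout (r of −0.0511 to 0.120), so WT numbers pair nothing. For genotype, the replicate block thus matches KO lines to WT numbers arbitrarily, and a call kept or lost in it decides nothing.

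The genes named are the 9 members, each by its start-site element, their elements that passed or separated 2 libraries from 2, and at most 3 of 44 pathway genes per contrast. The members and lists were chosen with earlier results of these data known. Alternatives were all 20 lists, no D5, the 20000 strongest peaks, a −log10 q of at least 2, 50% coverage, ranks by fold enrichment, a replicate block, WT alone and each replicate left out. Python 3.11.15, numpy 2.4.6, pandas 2.3.3 and scipy 1.17.1 were used.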

Additional observations from a re-analysis of the deposited data

Results flagged for a closer look

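The Mat2a start-site element moved in opposite directions between D0 and D1 CTL in the 2 genotypes. Its percentile was higher at D1 by 20.4 points in WT and lower by 25.9 points in KO, without overlap between the libraries of the 2 days in either genotype. In KO, line 1 fell by 48.2 points, from 59.1 to 10.9, and line 2 fell by 3.50, from 41.8 to 38.3. The difference between genotypes was 46.25 points (23.9 with line 2 alone and 68.6 with line 1 alone), with an exact permutation p of 0.111 when genotype was permuted within day. The smallest p this design allows is 0.0556, so it cannot pass the threshold. The element was flagged for this opposite move, so the p comes from the values that selected it and lends no support. Of the 11144 common regions, 23.7% were higher at D1 in WT and 14.2% lower in KO without overlap. The share with both was not counted.

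The 2 short lists of KO line 1 at D5, which the tests did not use, held 1 peak at an element of the 9 genes. It lay at the Mtr start site in MR, with a −log10 q of 1.222, and the CTL list of the same line had none. These lists held 1881 and 644 peaks.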

How the results depend on the processing

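For genotype by calls, 1 element passed. The count was 0 without the D5 libraries and 0 with 50% coverage, and 0 to 2 with a replicate left out. The element was the same with all 20 lists, with a −log10 q of at least 2 and with the replicate block. Among the 20000 strongest peaks it was another, Ahcyl1 9571 bp upstream, where 28% of 10319 regions tested passed. Without KO line 1 it was another, the first Ahcyl2 element at Strip2, where 24.7% of 13261 passed. The 2 came without KO line 2, the main element and Mtr 25619 bp downstream, where 75.2% of 7670 passed. For genotype by ranks, 1 passed, 0 without the D5 libraries, 0 with the replicate block, and 0 to 3 with a replicate left out. In the block the Mat2b difference was 20.5 (adjusted exact permutation p = 0.0980) and 0 of 11144 regions passed. For D5 against D1 by calls, 0 passed, 3 with all 20 lists, 1 with the replicate block on KO lines only, and 0 to 1 with a replicate left out. The 35 elements became 19 with the 20000 strongest peaks, 33 with a −log10 q of at least 2 and 25 within 2 kb, and the 29 separations of 2 libraries from 2 became 8 with the 20000 strongest peaks and 39 with 50% coverage. The next counts are with the 20000 strongest peaks, a −log10 q of at least 2 and 50% coverage, in this order. Brackets give the shares of all regions. The WT D5 gains in MR went from 2 to 1, 4 and 3 (8.22%, 27.3% and 40.8%). The KO losses at D1 in MR went from 5 to 1, 4 and 7 (8.71%, 18.1% and 19.7%). In CTL they went from 2 to 0, 2 and 1 (8.22%, 6.44% and 6.37%). The KO gain at D1 in MR went from 1 to 0, 0 and 0 (6.57%, 1.58% and 1.85%). The WT losses from D1 to D5 in CTL went from 6 to 0, 8 and 3 (11.3%, 32.4% and 38.3%). In MR they went from 7 to 1, 6 and 10 (9.12%, 23.1% and 27%). KO against WT at D0, with 0 gained and 0 lost, had 1 and 1 among the 20000 strongest (4.63% and 6.59%). With 50% coverage it had 1 and 2 (2.18% and 5.49%). WT D1 CTL against D0, with 1 gained and 0 lost, had 0 and 0 among the 20000 strongest (6.37% and 6.16%). With 50% coverage it had 0 and 2 (8.08% and 4.39%). In the other 59 recounts the number of elements that passed was the main one, and in 2 of them, named above, the element was another. Part of these recounts could not have differed. By calls, MR had an element to test only with 50% coverage. D5 against D1 had none in WT alone, among the 20000 strongest peaks, with the replicate block or without KO line 2. Genotype by restriction had none without D5, with the replicate block, or without either WT replicate or KO line 2. By ranks, the smallest exact p was 0.0556 for MR without D5 and for D5 against D1 in WT alone or without KO line 2. For genotype by restriction it was 0.0556 without D5 and 0.111 without KO line 2. Where an element could be tested, the block on all numbers changed no other call. The cause of the changes was not tested. For genotype there were 216 arrangements without D5 and 108 without either WT replicate, against 1944. By calls, 18.8% of 7182 regions passed without D5. Over all regions the genotype count by calls was 2257 (11.5% of those tested). It became 3513 with all 20 lists (18.8%), 1347 without D5 (18.8%) and 5767 without KO line 2 (75.2%). With 50% coverage or without either WT replicate it was 0. That of 2472 by ranks became 0 without D5, with the block, and without either WT replicate or KO line 2. For D5 against D1 by calls, 0 regions became 10687 with all 20 lists (66.2% of 16153 tested) and 603 with the block (91.6% of 658). With the block on KO lines only or without KO line 1 it was 3512 (90.1% of 3898). For D5 against D1 by ranks, 710 became 0 in WT alone, with either block and with each replicate left out. At D1 alone the exact test of MR and of the interaction cannot pass the threshold.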
